A study of Mus musculus with 25 samples.

Results

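Mt1, Mt2, Fkbp5, Tsc22d3, Sgk1, Fam107a, Zbtb16, Pdk4 and Cdkn1a are genes that glucocorticoid hormones are known to induce in many tissues. They were followed here in the dorsal root ganglia of mice with a surgical model of knee osteoarthritis. The 9 genes are 9 of the 30142 genes with a named probe set on the array, each was represented by 1 probe set, and all 9 were bright enough to be tested. They were selected on their known function and on earlier results of the same arrays, among them their log2 differences between operated and untreated mice. Values of operated against naive mice, and of operated against sham mice at 16 weeks, are therefore given as a description. The ganglia were the lumbar L3 to L5 ganglia of male C57BL/6 mice. Mice of the DMM groups were 10 weeks old when the medial meniscus of their right knee was destabilized (DMM), sham mice had sham surgery on that knee at that age, and naive mice were untreated. Ganglia were taken 4, 8 or 16 weeks after surgery, and from naive mice at the matching ages of 14, 18 and 26 weeks. Each of 8 groups held 3 arrays, and the sham group at 8 weeks held 1, since the submitters left the others out for quality. How many animals contributed to an array, which side the ganglia came from and the time of day at which they were taken are not in the labels. The p-values therefore measure only the spread between these arrays, which may be technical.

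Glucocorticoids are adrenal steroids, corticosterone in mice, whose level in blood follows the day and rises with stress. They bind the glucocorticoid receptor, a transcription factor that attaches to paired AGAACA-type sites in DNA and raises or lowers nearby genes. Fkbp5 encodes a chaperone partner that lowers the receptor's affinity for hormone, so it closes a feedback loop. Tsc22d3 encodes the leucine zipper protein GILZ, Sgk1 a kinase that regulates ion channels and transporters, Zbtb16 a zinc finger repressor, and Fam107a an actin-binding protein of neurons and glia. Pdk4 encodes a kinase that holds pyruvate dehydrogenase inactive during fasting, and Cdkn1a encodes p21, an inhibitor of the cell cycle that p53 and nerve injury also induce. Mt1 and Mt2 encode metallothioneins, small cysteine-rich proteins that bind zinc and copper. Zinc raises them through the factor MTF1, which binds metal response elements, and glucocorticoids raise them as well. Dbp, against which the genes were set, encodes a transcription factor whose RNA rises and falls over the day under direct control of the circadian clock.

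The stretches of 250 bases before annotated starts are shown for the pair of metallothioneins, which moved together between arrays, and for the Sgk1 start that carries a full receptor site. They come from RefSeq on GRCm38.p6, are written 5′ to 3′ on the plus strand, and capitals mark motif matches on either strand. The motifs searched were the metal response core TGCACNC or TGCGCNC, the receptor site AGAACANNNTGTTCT, the clock E-box CACGTG and the D-box TTATGTAA to which Dbp protein binds.
Mt2, chr8:94172368-94172617: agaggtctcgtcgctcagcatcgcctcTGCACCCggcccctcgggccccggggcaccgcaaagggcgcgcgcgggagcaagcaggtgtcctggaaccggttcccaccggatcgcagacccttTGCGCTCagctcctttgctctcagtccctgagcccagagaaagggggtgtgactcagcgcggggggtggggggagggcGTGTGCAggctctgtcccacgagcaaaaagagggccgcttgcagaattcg
Mt1, chr8:94178839-94179088: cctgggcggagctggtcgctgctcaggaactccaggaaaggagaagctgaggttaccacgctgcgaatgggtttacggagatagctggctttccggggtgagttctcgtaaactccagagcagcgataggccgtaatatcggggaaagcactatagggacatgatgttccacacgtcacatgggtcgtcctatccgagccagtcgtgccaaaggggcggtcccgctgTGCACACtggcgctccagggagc
Sgk1, chr10:21993640-21993889: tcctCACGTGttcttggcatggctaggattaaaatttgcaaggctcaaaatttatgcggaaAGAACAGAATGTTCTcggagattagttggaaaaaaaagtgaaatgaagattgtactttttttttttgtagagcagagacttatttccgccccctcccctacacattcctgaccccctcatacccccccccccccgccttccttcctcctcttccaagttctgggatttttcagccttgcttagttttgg
The Mt2 window held 3 matches to the metal response core, a number reached in 1.26% of 32851 windows, and the Mt1 window held 1, as 21.4% of windows hold at least 1. The Mt1 window runs past the start of the gene's interval (94178883), while the Mt2 window ends before its own (94172618). These counts therefore do not compare the promoters of Mt1 and Mt2. Mt1 and Mt2 are neighbours on chromosome 8, 5315 bases apart on the same strand. The Sgk1 window shown was 1 of several for this gene. It held the receptor site, found in 3 windows of all genes (0.00913%), and an E-box, found in 6.02%. The receptor site was in 1 of the 18 windows of the members, so the other Sgk1 windows held none. The metal response core was also present before Fam107a, the E-box also before Fkbp5, and the D-box (0.819% of windows) was in none of the 18 windows of the 8 genes matched. Zbtb16 was not matched. No matches overlapped in the windows shown, and a match describes letters and not binding.

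Values are the deposited log2 intensities. Differences between groups are log2 differences from a fit across all arrays in limma, with p-values adjusted by Benjamini-Hochberg over all 20260 genes tested and called under 0.05. Array medians lay between 4.88 and 4.97. Of 11 sensory neuron markers on the array, all 11 had a mean above the highest array median of the negative control probe sets. Only 2 of 8 skeletal muscle and 0 of 5 adipocyte markers did. In whole ganglia, fewer cells of a type and less RNA per cell cannot be told apart. The 4 week naive arrays and some others differed in a set of nerve injury genes, whose values are given beside Cdkn1a.

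The 9 probe sets spanned a wide range of brightness. Mt1 (mean 14.20), Mt2 (14.87) and Cdkn1a (12.72) lay above 95.4%, 96.6% and 91.3% of the 20260 genes tested. Dbp had a mean of 9.10, and Tsc22d3 (8.29), Pdk4 (8.06), Fam107a (7.49), Sgk1 (7.22), Fkbp5 (7.03) and Zbtb16 (6.29) were dimmer. Zbtb16 was the dimmest, although its mean still lay above the array medians of the negative controls, which were 5.06 to 5.35. The probe sets differ in how they hybridise, so these brightness values do not rank the transcripts. Over the 25 arrays the distance from the lowest to the highest value was 1.57 for Mt2, 1.10 for Zbtb16, 1.0 for Cdkn1a, 0.95 for Fam107a, 0.85 for Mt1 and 0.83 for Pdk4. It was 0.66 for Sgk1, 0.48 for Tsc22d3 and 0.44 for Fkbp5, against 2.41 for Dbp.

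**Figure D1:**
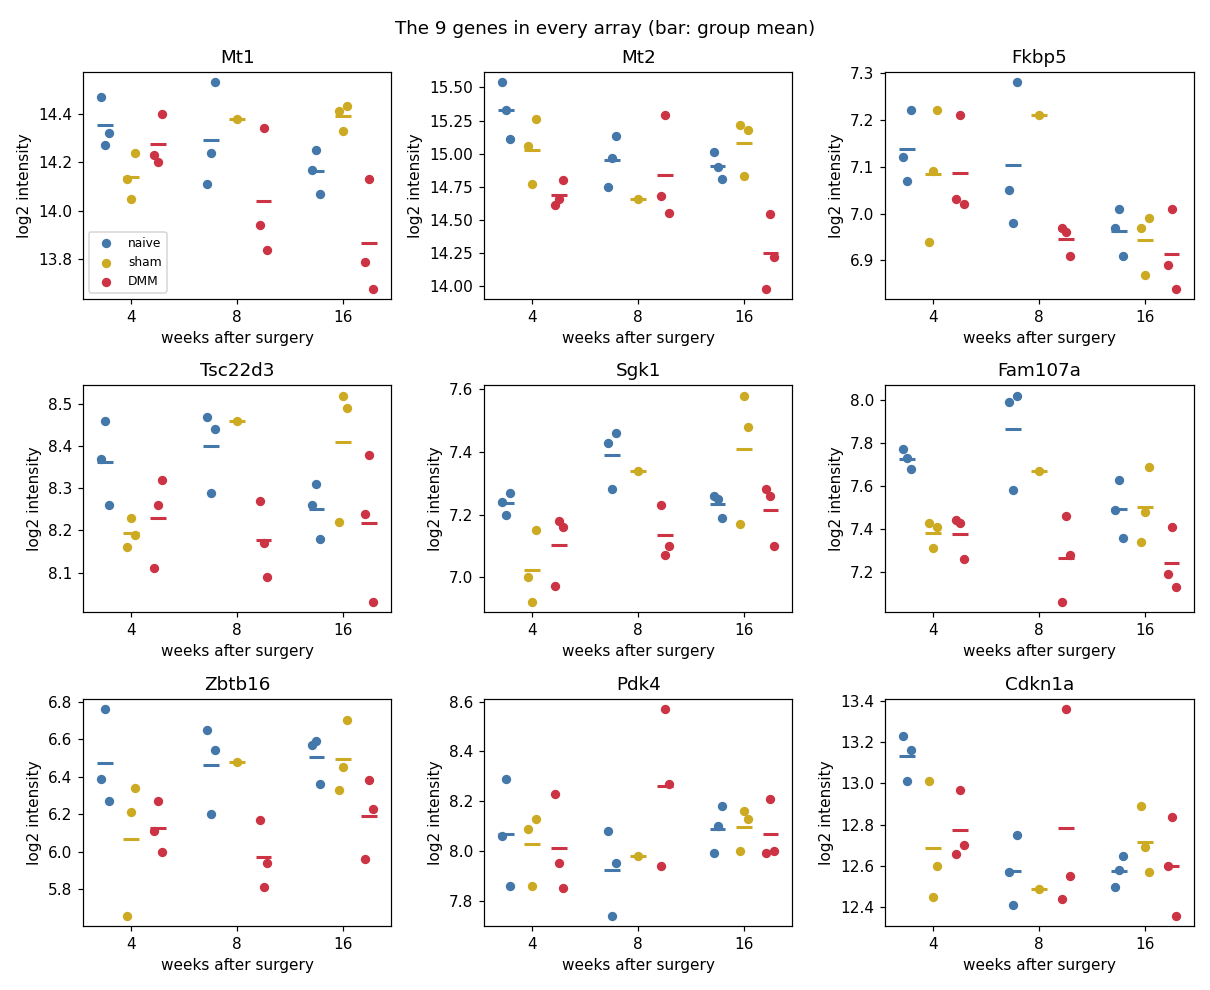
Log2 intensity of each of the 9 genes (vertical axes, different ranges) against weeks after surgery for naive, sham and DMM arrays, with naive arrays at the matching ages. Each point is 1 array and each bar a group mean. Mt2 is lowest in the DMM arrays at 16 weeks (13.98, 14.54 and 14.22), and Cdkn1a is high in all 3 naive arrays at 4 weeks and in 1 DMM array at 8 weeks.

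Mt2, at chr8:94172618-94173567, had its highest group mean in naive mice at 4 weeks, 15.33 ± 0.22 (SD, n = 3), and its lowest in DMM mice at 16 weeks, 14.25 ± 0.28. Naive arrays read 15.54, 15.33 and 15.11 at 4 weeks, 14.75, 14.97 and 15.13 at 8 weeks, then 15.01, 14.90 and 14.81 at 16 weeks. Sham arrays read 15.06, 14.77 and 15.26 at 4 weeks, 14.66 at 8 weeks, then 15.22, 14.83 and 15.18 at 16 weeks. DMM arrays read 14.61, 14.66 and 14.80 at 4 weeks, 14.68, 15.29 and 14.55 at 8 weeks, then 13.98, 14.54 and 14.22 at 16 weeks. Every DMM array lay below every naive array at 4 and at 16 weeks, while at 8 weeks the groups overlapped through a single high DMM array. The DMM minus naive difference was -0.64 ± 0.18 (SE) at 4 weeks, -0.11 ± 0.18 at 8 weeks and -0.66 ± 0.18 at 16 weeks. Without the high DMM array the 8 week difference was -0.33. The DMM minus sham difference at 16 weeks was -0.83 ± 0.18, the largest in size that any of the 9 genes showed between 2 groups of the same time.

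Mt1, at chr8:94178883-94180327, differed less and in a partly different order. Naive arrays read 14.47, 14.27 and 14.32 at 4 weeks, 14.11, 14.24 and 14.53 at 8 weeks, then 14.17, 14.25 and 14.07 at 16 weeks. Sham arrays read 14.13, 14.05 and 14.24 at 4 weeks, 14.38 at 8 weeks, then 14.41, 14.33 and 14.43 at 16 weeks. DMM arrays read 14.23, 14.20 and 14.40 at 4 weeks, 13.94, 14.34 and 13.84 at 8 weeks, then 13.79, 14.13 and 13.68 at 16 weeks. Sham mice at 16 weeks had the highest mean, 14.39 ± 0.05 (SD, n = 3), and DMM mice at 16 weeks the lowest, 13.87 ± 0.23, with no overlap. Sham arrays lay below every naive array at 4 weeks and above every naive array at 16 weeks. The DMM minus naive difference was -0.08 ± 0.13 (SE) at 4 weeks, -0.25 ± 0.13 at 8 weeks and -0.29 ± 0.13 at 16 weeks, and the DMM minus sham difference at 16 weeks was -0.52 ± 0.13. Neighbours in the order of group means differed by less than the larger SD of the pair, except DMM mice at 4 weeks (14.28 ± 0.11) and naive mice at 16 weeks (14.16 ± 0.09), whose arrays overlapped.

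Fam107a, at chr14:8296270-8317607, was lower in DMM than in naive means at each time. Naive arrays read 7.77, 7.73 and 7.68 at 4 weeks, 7.99, 7.58 and 8.02 at 8 weeks, then 7.49, 7.63 and 7.36 at 16 weeks. DMM arrays read 7.44, 7.43 and 7.26 at 4 weeks, 7.06, 7.46 and 7.28 at 8 weeks, then 7.19, 7.41 and 7.13 at 16 weeks. The groups did not overlap at 4 or 8 weeks and overlapped at 16 weeks. Sham arrays read 7.43, 7.31 and 7.41 at 4 weeks, level with the DMM arrays, then 7.67 at 8 weeks, then 7.34, 7.48 and 7.69 at 16 weeks, level with the naive arrays. The DMM minus naive difference was -0.35 ± 0.12 (SE) at 4 weeks, -0.59 ± 0.12 at 8 weeks and -0.25 ± 0.12 at 16 weeks.

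Zbtb16, at chr9:48651797-48836225, was highest in naive mice at 16 weeks, 6.51 ± 0.13 (SD, n = 3), and lowest in DMM mice at 8 weeks, 5.97 ± 0.18. Naive arrays read 6.39, 6.76 and 6.27 at 4 weeks, 6.65, 6.20 and 6.54 at 8 weeks, then 6.57, 6.59 and 6.36 at 16 weeks. DMM arrays read 6.11, 6.27 and 6.00, then 6.17, 5.81 and 5.94, then 5.96, 6.38 and 6.23 at those times. Sham arrays read 5.66, 6.21 and 6.34 at 4 weeks, 6.48 at 8 weeks, then 6.33, 6.45 and 6.70 at 16 weeks. The 3 naive means, the 8 week sham array and the 16 week sham mean lay between 6.46 and 6.51, and the 4 other means lay between 5.97 and 6.19, and neighbours within each set differed by less than the spread within groups. The lowest single array was a sham array at 4 weeks.

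Sgk1, at chr10:21882184-21999903, separated the sham groups by time. Sham arrays read 7.0, 6.92 and 7.15 at 4 weeks, 7.34 at 8 weeks, then 7.17, 7.58 and 7.48 at 16 weeks. Naive arrays read 7.24, 7.20 and 7.27 at 4 weeks, 7.43, 7.28 and 7.46 at 8 weeks, then 7.26, 7.25 and 7.19 at 16 weeks. DMM arrays read 6.97, 7.18 and 7.16, then 7.23, 7.07 and 7.10, then 7.28, 7.26 and 7.10. Every 16 week sham array lay above every 4 week sham array, and every DMM array lay below every naive array at 4 and 8 weeks. At 16 weeks the naive and DMM arrays overlapped.

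Tsc22d3, at chrX:140539528-140600522, moved over a smaller range. Naive arrays ran from 8.26 to 8.46 at 4 weeks, 8.29 to 8.47 at 8 weeks and 8.18 to 8.31 at 16 weeks. Sham arrays ran from 8.16 to 8.23 at 4 weeks, stood at 8.46 at 8 weeks and ran from 8.22 to 8.52 at 16 weeks. DMM arrays ran from 8.11 to 8.32, 8.09 to 8.27 and 8.03 to 8.38. The DMM arrays lay below the naive arrays without overlap at 8 weeks only. Fkbp5, at chr17:28398753-28486149, had group means between 6.91 ± 0.09 (SD, n = 3) in DMM mice at 16 weeks and 7.14 ± 0.07 in naive mice at 4 weeks, with the lone sham array of 8 weeks at 7.21. The 3 groups at 16 weeks and DMM mice at 8 weeks (6.95 ± 0.03) had the 4 lowest means, and neighbours among them differed by less than the spread within groups.

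Pdk4, at chr6:5483351-5496278, had group means between 7.92 ± 0.17 (SD, n = 3) in naive mice and 8.26 ± 0.31 in DMM mice, both at 8 weeks. The 7 other groups lay between 7.98 and 8.10, with SDs of up to 0.22. DMM arrays at 8 weeks read 7.94, 8.57 and 8.27, and the highest of these was the highest of all 25 arrays.

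Cdkn1a, at chr17:29090979-29100722, was highest in naive mice at 4 weeks, where the arrays read 13.23, 13.01 and 13.16. Naive arrays read 12.57, 12.41 and 12.75 at 8 weeks, then 12.50, 12.58 and 12.65 at 16 weeks. Sham arrays read 13.01, 12.45 and 12.60 at 4 weeks, 12.49 at 8 weeks, then 12.89, 12.69 and 12.57 at 16 weeks. DMM arrays read 12.66, 12.97 and 12.70, then 12.44, 13.36 and 12.55, then 12.60, 12.84 and 12.36. The value of 13.36 in 1 DMM array at 8 weeks was the highest of all, and this is the array that was high for Mt2 and Pdk4. Its Dbp value was 7.85, the second lowest of the 25 arrays. Without this array the DMM minus naive difference at 8 weeks went from 0.21 to -0.08 for Cdkn1a and from 0.34 to 0.19 for Pdk4.

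Set side by side for DMM against naive mice, differences were negative for 9 of 9 genes at 4 weeks, 7 of 9 at 8 weeks and 8 of 9 at 16 weeks. DMM arrays lay wholly below naive arrays for 4 of the 9 genes at 4 weeks, as did 11.3% of all genes, for 5 at 8 weeks (5.39%) and for 1, Mt2, at 16 weeks (5.38%). The median of the 9 differences was -0.13 at 4 weeks, -0.22 at 8 weeks and -0.05 at 16 weeks, while the medians of all genes were -0.03, -0.001 and 0.009. Averaged over the 3 times, the differences were -0.47 ± 0.10 (SE) for Mt2, -0.40 ± 0.07 for Fam107a, -0.38 ± 0.10 for Zbtb16 and -0.21 ± 0.07 for Mt1. They were -0.14 ± 0.05 for Sgk1, -0.13 ± 0.05 for Tsc22d3, -0.08 ± 0.05 for Fkbp5, -0.04 ± 0.11 for Cdkn1a and 0.09 ± 0.08 for Pdk4. In that average 1 of the 9, Fam107a at 1.32-fold lower, passed the threshold, beside 0.0444% of all genes in either direction and 0.0296% downward. That call was lost in 15 of 27 alternatives, among them the replicate block, only the arrays compared, and leaving out any of 13 single arrays. At the single times 0 of the 9 passed, beside 0.00987%, 0.0494% and 0.0148% of all genes. As these contrasts were known when the genes were chosen, nothing is read from these counts.

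**Figure D2:**
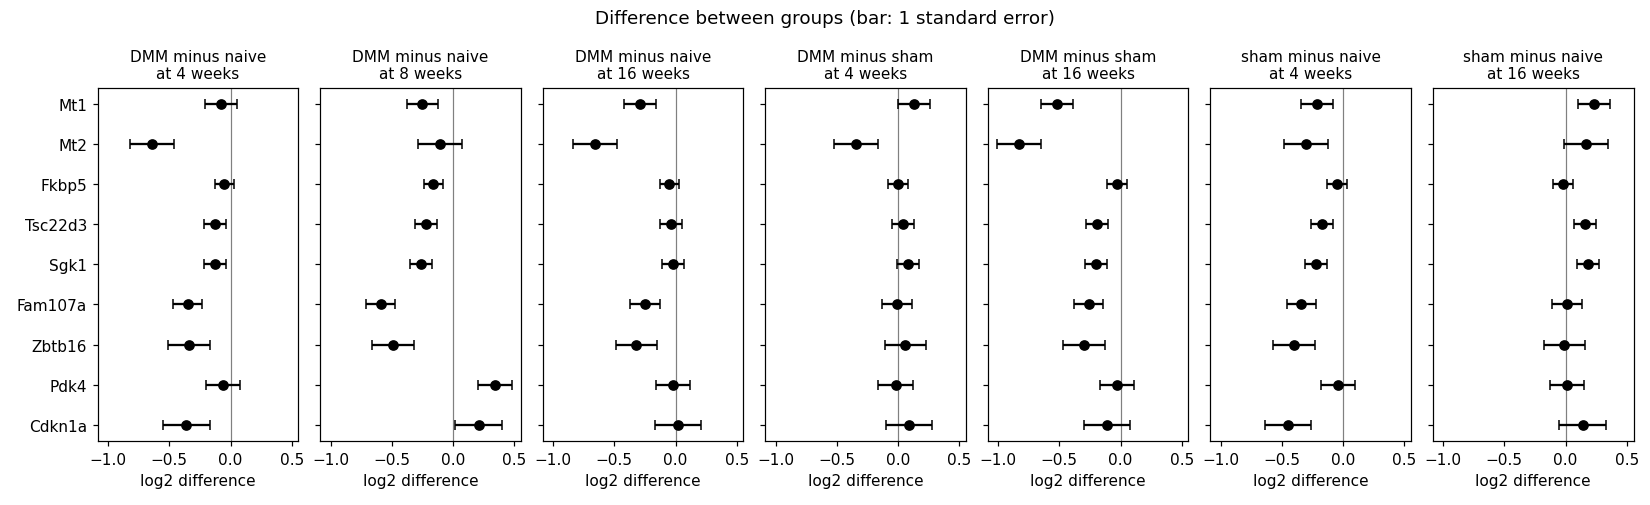
Log2 difference (horizontal axis) of each of the 9 genes in 7 comparisons between groups of the same time, with bars of 1 standard error from the fit. All 9 points lie below 0 for DMM minus naive at 4 weeks, DMM minus sham at 16 weeks and sham minus naive at 4 weeks, and comparisons of the same time share arrays.

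Against sham mice, the 4 week comparison asks whether the joint surgery adds to the effect of a sham operation. No gene of the 9 passed there in limma, with differences from -0.34 ± 0.18 (SE) for Mt2 to 0.13 ± 0.13 for Mt1 and adjusted p from 0.986 to 0.999. Without adjustment 0 of the 9 had p under 0.05, beside 949 of the 20260 genes, and 0.0% of all genes passed with adjustment. At 16 weeks, all 9 differences were negative, with a median of -0.20 against -0.013 for all genes. Both metallothioneins, and no other gene of the 9, lay wholly below the sham arrays, as did 7.56% of all genes. Differences for the others at 16 weeks were -0.30 ± 0.17 for Zbtb16, -0.26 ± 0.12 for Fam107a, -0.20 ± 0.09 for Sgk1 and -0.19 ± 0.09 for Tsc22d3. Those of Cdkn1a, Fkbp5 and Pdk4 were within their standard errors. Of all genes, 0.00494% were called in that comparison, and 0 of the 9.

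Sham against naive mice shows what the sham operation went with. At 4 weeks all 9 differences were negative, with a median of -0.22 against -0.047 for all genes, and 0 of the 9 passed in limma, beside 0.331% of all genes. Sham arrays lay wholly below naive arrays for Cdkn1a, Fam107a, Mt1, Sgk1 and Tsc22d3, 5 of the 9, as for 16.7% of all genes. Fam107a differed by -0.34 ± 0.12 (SE, adjusted p = 0.165) and Sgk1 by -0.22 ± 0.09 (adjusted p = 0.247) in limma. Cdkn1a differed by -0.45 ± 0.19 (adjusted p = 0.247) and Zbtb16 by -0.40 ± 0.17 (adjusted p = 0.251). Without adjustment 4 of the 9 had p under 0.05, as did 3229 genes in all. In the same comparison 11 of 11 macrophage markers were negative (median -0.56), of which C1qc, Cd68, Mrc1 and Csf1r fell, each at a limma adjusted p of 0.0411. All 11 fibroblast and meningeal markers (median -0.56) and 13 of 14 nerve injury genes (median -0.68) were negative too, and 0 of these passed. The mean of the macrophage markers ran from 7.01 to 7.34 in naive and from 6.48 to 6.74 in sham arrays, and the part of these lists in the members' values was not tested. At 16 weeks 7 of the 9 differences were positive, from -0.02 ± 0.08 for Fkbp5 to 0.23 ± 0.13 for Mt1 (limma adjusted p = 0.553), and 0 passed, beside 0.00494% of all genes. Only Mt1 lay wholly above the naive arrays, as did 12.2% of genes. Without adjustment 0 of the 9 had p under 0.05, beside 2180 genes. DMM against naive and sham against naive share the naive arrays. As DMM against naive was known when the genes were chosen, the signs and medians of sham against naive are not independent of that choice.

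The change of the sham minus naive difference from 4 to 16 weeks was positive for all 9 genes, with a median change of 0.39 against 0.067 for all genes, although no single change passed in limma. It shares its naive arrays and its 16 week sham arrays with contrasts that were known when the genes were chosen. The common sign and the median are therefore a description. The changes were 0.39 ± 0.13 (SE, adjusted p = 0.103) for Sgk1, 0.33 ± 0.13 (0.165) for Tsc22d3, 0.44 ± 0.18 (0.176) for Mt1 and 0.59 ± 0.27 (0.222) for Cdkn1a. Without adjustment 4 of the 9 had p under 0.05, as did 4083 genes, and 2.09% of all genes passed with adjustment. Without sham array 1 at 16 weeks the change of Sgk1 was 0.51 and passed (limma adjusted p = 0.0387). The median of 11 macrophage markers changed by 0.81 in this comparison and 6 of the 11 rose, and their part in the members' values was not tested.

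Over time, Cdkn1a in naive mice and Sgk1 in sham mice passed the threshold. Cdkn1a fell by 0.56 ± 0.19 on the log2 scale (SE, limma adjusted p = 0.0456) between 4 and 16 weeks in naive mice, 1 of the 9 members, beside 18.8% of all genes in either direction and 12.7% downward. Naive arrays at 16 weeks lay wholly below those at 4 weeks for Cdkn1a, Fam107a, Fkbp5, Mt1 and Mt2, 5 of the 9, as did 26.2% of all genes. Mt2 differed by -0.42 ± 0.18 (adjusted p = 0.109), Fam107a by -0.23 ± 0.12 (0.185) and Fkbp5 by -0.18 ± 0.08 (0.136). The Cdkn1a call was lost when any of the 6 naive arrays was left out (adjusted p 0.0597 to 0.131), with quantile normalization (-0.40, 0.161) and with cyclic loess (-0.44, 0.123). With the replicate number as a block its adjusted p was 0.0557.

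Sgk1 rose by 0.39 ± 0.09 (SE, limma adjusted p = 0.0364) between 4 and 16 weeks in sham mice, beside 1.76% of all genes in either direction and 0.928% upward. All but 1 of the 9 differences, that of Fkbp5, were positive there, with Zbtb16 at 0.42 ± 0.17 (adjusted p = 0.191), Mt1 at 0.25 ± 0.13 (0.308) and Tsc22d3 at 0.22 ± 0.09 (0.206). Sgk1 and Mt1 did not overlap between the times, as in 15.2% of all genes. Without sham array 1 or 2 at 4 weeks, or sham array 2 or 3 at 16 weeks, the Sgk1 call was lost (adjusted p 0.08 to 0.174), and it was lost with the replicate block (0.0556). In DMM mice no member passed, beside 2.87% of all genes. Mt2 differed by -0.44 ± 0.18 (limma adjusted p = 0.188) and Mt1 by -0.41 ± 0.13 (0.085) between 4 and 16 weeks, and Fkbp5, Mt1 and Mt2 did not overlap between those times, as 13.8% of all genes did not. Without adjustment 3 of the 9 had p under 0.05 in each of the 3 time comparisons, as did 6723, 3742 and 3725 genes in naive, sham and DMM mice. The time comparisons also share arrays with the contrasts known when the genes were chosen.

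Nerve injury genes stood apart in some arrays, and Cdkn1a varied with them. The list holds 15 genes induced in injured sensory neurons, such as Atf3, Sprr1a, Gal and Sox11, and was drawn up after these arrays had been looked at. Its mean was 9.49, 9.28 and 9.44 in the naive arrays at 4 weeks and 7.48, 7.62 and 7.65 in the naive arrays at 16 weeks. It was 7.62, 9.49 and 8.17 in the DMM arrays at 8 weeks, in the same order as Cdkn1a there. Correlations were taken with the mean of the 14 genes of the list that were tested. Over the 25 arrays Cdkn1a correlated with that mean at r = 0.73, at 0.81 for deviations from group means (24 arrays) and at 0.68 over arrays without the high DMM array. Fkbp5 correlated at 0.58 (deviations 0.31), Mt2 at 0.45 (0.50), Mt1 at 0.36 (0.44), Fam107a at 0.30 (0.52) and Pdk4 at 0.20 (0.44). Tsc22d3 (-0.03, deviations -0.15), Zbtb16 (-0.19 and -0.22) and Sgk1 (-0.29 and -0.08) had values below 0. In naive mice 12 of the 14 tested genes of the list fell between 4 and 16 weeks, with a median of -1.36, and 8 of 11 macrophage markers fell, with a median of -0.62. Of all genes, 12.7% fell. The part of these lists in the fall of Cdkn1a was not tested.

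**Figure D3:**
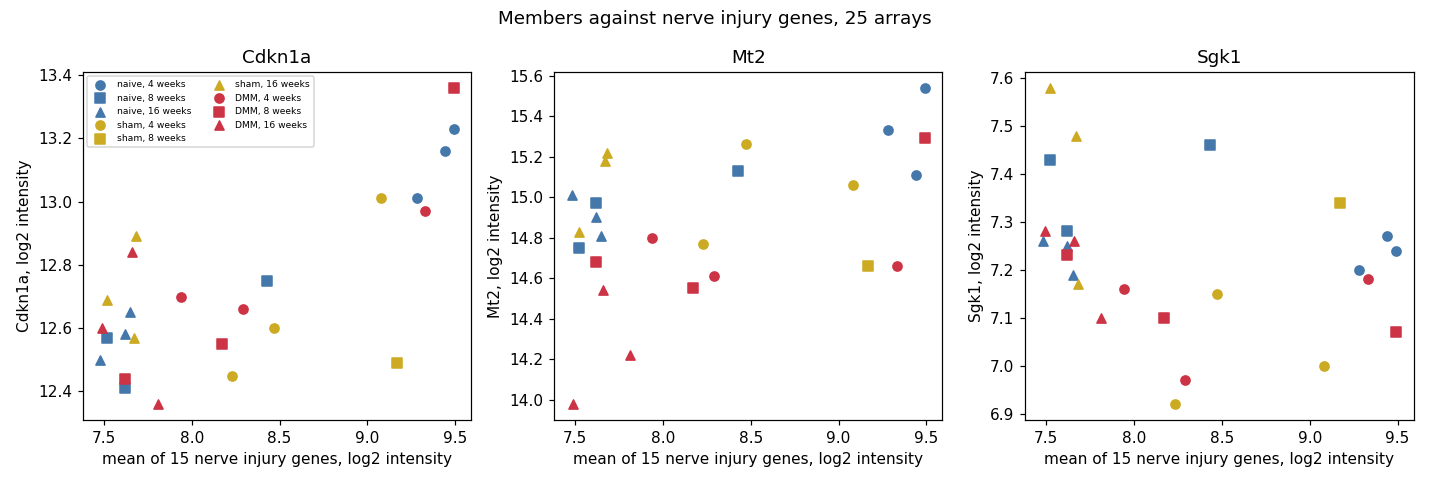
Log2 intensity of Cdkn1a, Mt2 and Sgk1 (vertical axes) against the mean log2 intensity of 15 nerve injury genes (horizontal axes) in 25 arrays, coloured by treatment and shaped by time. Cdkn1a is highest where the injury mean is high (r = 0.73), with the 8 week sham array (9.17, Cdkn1a 12.49) as an exception, while Sgk1 shows a weak negative relation (r = -0.29). The r values are with the mean of the 14 genes of the list that were tested.

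Dbp itself was lowest in DMM mice, at 7.89 ± 0.20 (SD, n = 3) at 4 weeks, 8.43 ± 0.51 at 8 weeks and 8.54 ± 0.29 at 16 weeks. Naive means were 9.55 ± 0.29, 9.88 ± 0.17 and 9.74 ± 0.21, and sham means were 8.92 ± 0.31 at 4 weeks and 9.73 ± 0.17 at 16 weeks, with the 8 week array at 9.36. Over all 25 arrays, Pearson's r with Dbp was 0.71 for Zbtb16 (Spearman's rho 0.72), 0.63 for Sgk1 (0.65), 0.59 for Tsc22d3 (0.59) and 0.58 for Fam107a (0.62). It was 0.42 for Mt2 (0.44), 0.34 for Mt1 (0.33), 0.12 for Fkbp5 (0.12), -0.17 for Cdkn1a (-0.12) and -0.19 for Pdk4 (-0.04). The r of Fkbp5, a classical receptor target, was lower than those of Zbtb16, Sgk1, Tsc22d3 and Fam107a, and these differences were not tested. Without the 2 arrays farthest from the median of Dbp, r was 0.68 for Zbtb16, 0.54 for Sgk1, 0.51 for Tsc22d3, 0.67 for Fam107a, 0.56 for Mt2 and 0.49 for Mt1. Among 20259 genes, Zbtb16 ranked 13 and Sgk1 27 by r with Dbp, while 0.262% of genes lay above Tsc22d3, 0.267% above Fam107a, 2.89% above Mt2 and 32.6% above Fkbp5. The members were chosen with their DMM against naive differences known, and Dbp differed between the same groups. The values and ranks over all arrays are therefore a description, and nothing is read from them. By treatment, with times together, r differed in sign for some members. For Mt1 it was 0.83 in the 7 sham arrays, -0.16 in the 9 naive arrays and -0.59 in the 9 DMM arrays, and for Fam107a 0.36, 0.07 and -0.46. For Sgk1 it was 0.88, 0.19 and 0.63, for Zbtb16 0.80, 0.32 and 0.26, and for Tsc22d3 0.72, 0.28 and 0.23. For Mt2 it was 0.08, -0.34 and -0.41. These values describe arrays that share groups, in which Dbp and several members differ by treatment.

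Within groups r with Dbp was lower for Zbtb16, Sgk1, Tsc22d3 and Fam107a than over all arrays, and no slope of a member passed across all genes. Correlations were computed on deviations from group means over the 24 arrays of groups with 3, with p-values from 100000 permutations within groups, two-sided. These permutation p-values are not adjusted for the 45 relations of members to Dbp, each with an r and a rho. For Zbtb16 r was 0.47 (permutation p = 0.061) and rho 0.50 (p = 0.0494), for Tsc22d3 r was 0.39 (p = 0.0912) and rho 0.48 (p = 0.033), and for Sgk1 r was 0.36 (p = 0.0903) and rho 0.38 (p = 0.0947). By r within groups, 7.68% of all genes tested lay above Zbtb16, 11.5% above Tsc22d3 and 13.4% above Sgk1. For Fam107a, which ranked high over all arrays, r within groups was -0.16 (permutation p = 0.58). Mt1 (-0.13), Mt2 (-0.19), Pdk4 (-0.19) and Fkbp5 (0.14) also lay near 0, and Cdkn1a stood at -0.49 (permutation p = 0.17). Without the 2 arrays farthest from the median, r within groups was 0.50 for Zbtb16, 0.58 for Tsc22d3, 0.40 for Sgk1 and -0.20 for Cdkn1a. Fitted across all genes, the slope on Dbp within groups was 0.37 ± 0.16 (SE, limma adjusted p = 0.262) for Zbtb16, 0.15 ± 0.09 (0.432) for Tsc22d3, 0.14 ± 0.09 (0.488) for Sgk1 and -0.43 ± 0.18 (0.228) for Cdkn1a. Of the 9 members 0 passed, beside 1.83% of all genes, and without adjustment 2 of the 9 had p under 0.05, as did 3411 genes. The high DMM array of 8 weeks weighed on several slopes. Without it the slope of Cdkn1a was -0.08, and those of Mt1 and Mt2 turned from -0.08 to 0.19 and from -0.16 to 0.22. Cell type markers moved with Dbp within groups as well. All 11 fibroblast and meningeal markers had a positive slope (median 1.14), and 4 of them, Igf2, Col1a1, Col1a2 and Dcn, passed. All 8 myelinating Schwann cell markers were positive (median 0.39, 0 passed), and all 14 nerve injury genes were negative (median -0.85), of which Sox11 passed. These list slopes include the high DMM array of 8 weeks, whose injury mean was 9.49, against 7.62 and 8.17 in the other arrays of its group. List slopes without that array are not given. In deviations from group means, the mean of the fibroblast and meningeal markers correlated at 0.40 with Tsc22d3, 0.39 with Sgk1 and -0.01 with Zbtb16. It ran from 8.27 in a DMM array at 8 weeks to 11.22 in a DMM array at 16 weeks, and the part of these markers in the relations to Dbp was not tested.

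**Figure D4:**
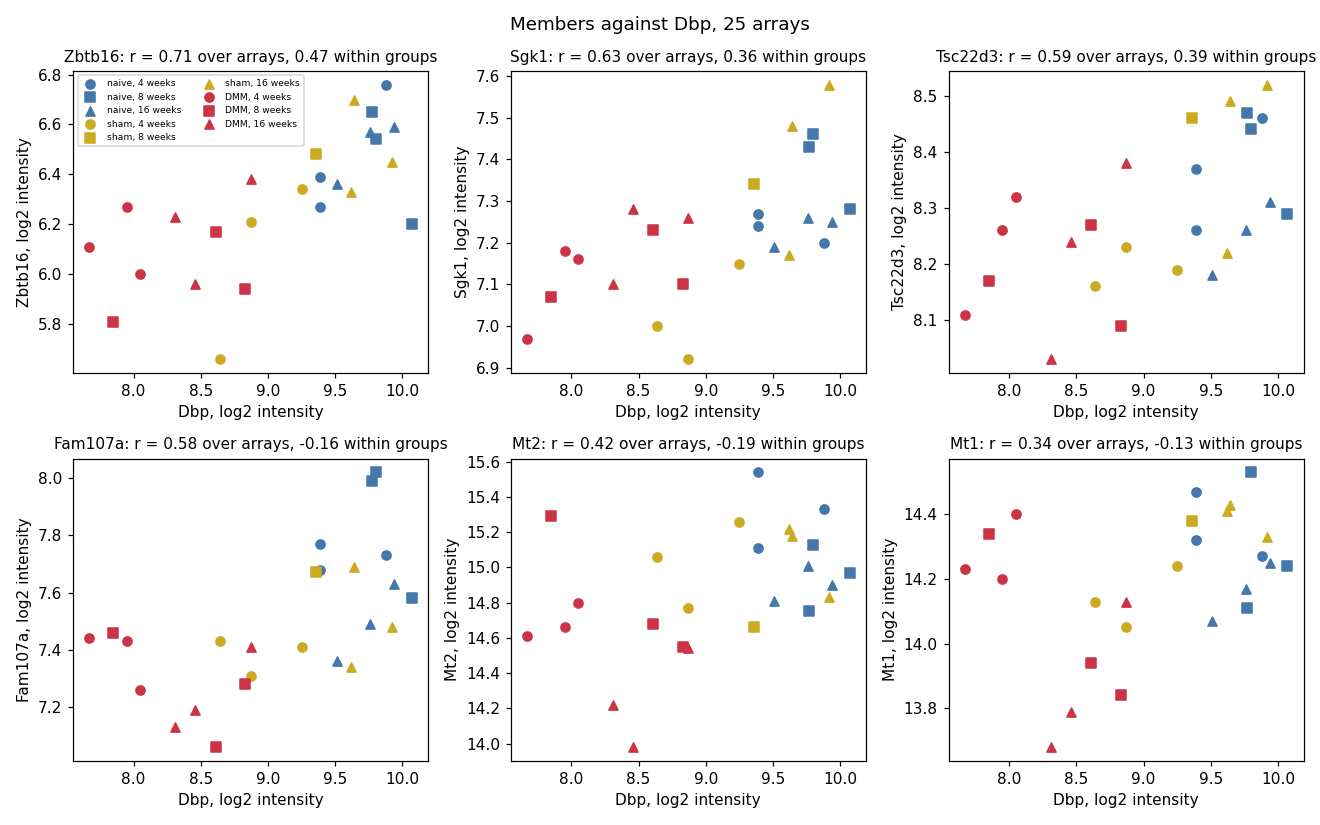
Log2 intensity of Zbtb16, Sgk1, Tsc22d3, Fam107a, Mt2 and Mt1 (vertical axes) against that of Dbp (horizontal axes) in 25 arrays, coloured by treatment and shaped by time, with Pearson's r over arrays and over deviations from group means in each title. For Fam107a r is 0.58 over arrays and -0.16 within groups, while Zbtb16 keeps a positive value, 0.71 and 0.47.

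Among all genes, those with a pattern most like each member over the 25 arrays were named by the highest Pearson's r, 3 per member. Per1, a clock gene that glucocorticoids and the cyclic AMP pathway also induce, came first for Tsc22d3 (r = 0.84, and 0.92 for deviations from group means), Sgk1 (0.81 and 0.80) and Zbtb16 (0.79 and 0.67). For Zbtb16 the next were Tef (0.77), a relative of Dbp, and the clock gene Per2 (0.77). Sgk1 and Tsc22d3 named each other (0.80, deviations 0.72). Mt1 was nearest to Mt2 (0.76, deviations 0.84), and Mt2 to Scgb1a1 (0.78), Mt1 and Ppdpf (0.75). Fkbp5 was nearest to Pcf11 (0.86) and Ddit4 (0.78), itself a glucocorticoid target. Fam107a was nearest to Iqgap2 and Tsc22d4 (both 0.80). Cdkn1a was nearest to Il13ra1 (0.87), Pim3 (0.85) and Rhoc (0.85), and Pdk4 to Elovl5 (0.70). Per1 itself read 6.97 ± 0.34 (SD, n = 3), 7.10 ± 0.22 and 7.03 ± 0.25 in DMM mice at 4, 8 and 16 weeks, against 7.37 ± 0.23, 7.74 ± 0.25 and 7.63 ± 0.12 in naive mice. In sham mice Per1 read 7.07 ± 0.17 at 4 weeks and 7.56 ± 0.37 at 16 weeks.

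**Figure D5:**
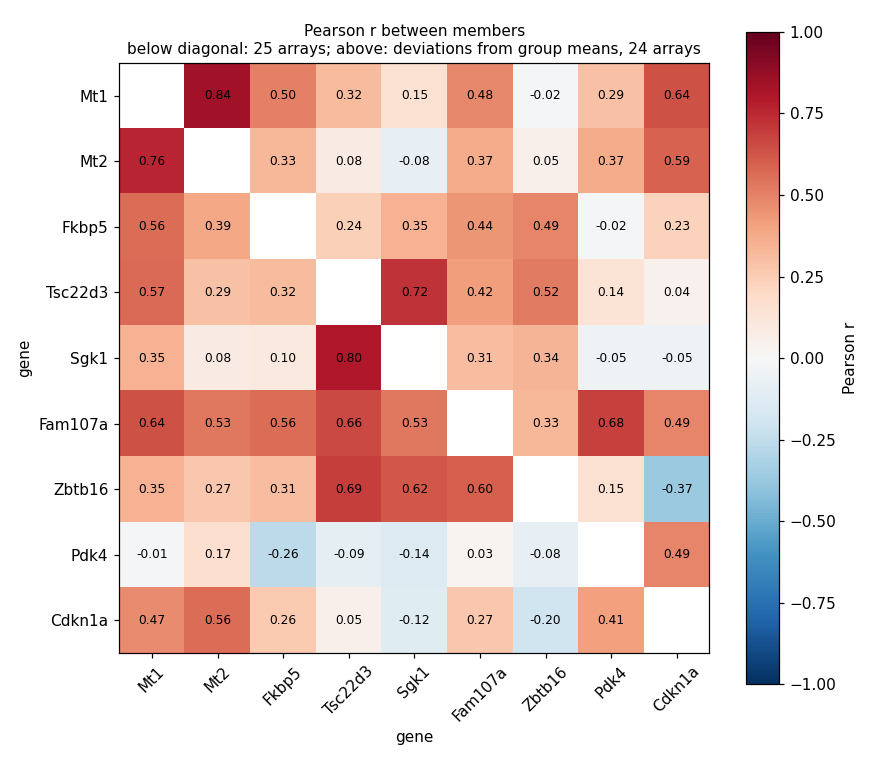
Pearson's r between each pair of the 9 genes, below the diagonal over 25 arrays and above it over deviations from group means in 24 arrays, from -1 (blue) to 1 (red). Tsc22d3 with Sgk1 (0.80 and 0.72) and Mt1 with Mt2 (0.76 and 0.84) are high both ways, and Pdk4 and Cdkn1a have values near 0 or below with Sgk1.

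The 9 genes did not form 1 pattern across arrays. Of the 36 pairs, 13 had r of at least 0.5 over the 25 arrays and 7 in deviations from group means, and 7 and 6 pairs were negative. Sgk1, Tsc22d3, Zbtb16 and Fam107a were related to each other over arrays, at r from 0.53 for Sgk1 with Fam107a to 0.80 for Sgk1 with Tsc22d3. In deviations from group means r was 0.72 for Sgk1 with Tsc22d3 and 0.52 for Tsc22d3 with Zbtb16. The other pairs of this set were lower there. They stood at 0.42 for Tsc22d3 with Fam107a, 0.34 for Sgk1 with Zbtb16, 0.33 for Fam107a with Zbtb16 and 0.31 for Sgk1 with Fam107a. Mt1 and Mt2 were related to each other and, in deviations, to Cdkn1a (0.64 and 0.59), but they were not apart from the other genes. Mt1 reached 0.64 with Fam107a, 0.57 with Tsc22d3 and 0.56 with Fkbp5 over arrays, and Mt2 reached 0.53 with Fam107a, while Mt1 and Mt2 with Sgk1 stood at 0.35 and 0.08. Pdk4 had no r above 0.41 with another member over arrays, and in deviations it reached 0.68 with Fam107a. All pairs share the same arrays and their scaling.

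Other genes of the pathway came from lists drawn up with results of these arrays known. Of 26 tested glucocorticoid targets outside the 9, 4 fell and 0 rose in naive mice between 4 and 16 weeks, a share near the 12.7% of all genes that fell. Those were Anxa1, an anti-inflammatory annexin (-1.02 ± 0.29 SE, limma adjusted p = 0.0178), Ddit4, an inhibitor of mTOR signalling (-0.73 ± 0.17, 0.00687), the transcription factor Cebpd (-0.60 ± 0.18, 0.0244) and Klf9, a zinc finger factor (-0.39 ± 0.09, 0.00592). Ddit4 also fell in DMM mice over that time (-0.85 ± 0.17, limma adjusted p = 0.014), as the only one of the 26, beside 2.87% of all genes in either direction. In the slope on Dbp within groups 2 of the 26 rose with Dbp, beside 1.83% of all genes passing in either direction. Those were Txnip, an arrestin-like regulator of glucose uptake (0.95 ± 0.16, limma adjusted p = 0.0114), and Cdkn1c, the cell cycle inhibitor p57 (0.52 ± 0.10, 0.0218). In sham against naive mice at 4 weeks 0 of the 26 passed and 21 of 26 were negative, with a median of -0.13 against -0.05 for all genes. The change of the sham effect was positive for 22 of 26, with a median of 0.20 against 0.07, and 0 passed.

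Of 10 tested genes for receptors and hormone handling, 1 rose and 3 fell in naive mice between 4 and 16 weeks, beside 18.8% of all genes in either direction. The coactivator Ncoa2 rose by 0.34 (limma adjusted p = 0.00434), and the receptor's chaperones Hsp90aa1 (-0.34, 0.00366), Ptges3 (-0.31, 0.0124) and Fkbp4 (-0.28, 0.0261) fell. Abcb1a, a pump that exports steroids at vessel walls, rose with Dbp within groups (slope 0.77 ± 0.20 SE, limma adjusted p = 0.049). It was 1 of the 10, beside 1.83% of all genes in either direction. In the other comparisons 0 of the 10 passed. Of 22 tested genes for other metallothioneins and zinc handling, 1 rose and 3 fell in naive mice over time, a share near the 18.8% of all genes. The zinc transporter Slc39a13 rose by 0.18 (limma adjusted p = 0.0479), and Slc39a1 (-0.36, 0.00844), Slc30a4 (-0.29, 0.0193) and Slc39a7 (-0.28, 0.0156) fell. Slc39a7 also fell in sham mice between 4 and 16 weeks (-0.35 ± 0.08 SE, limma adjusted p = 0.0311), as 1 of the 22, beside 1.76% of all genes in either direction. None of the 22 passed between groups of the same time, including DMM against sham at 16 weeks, where 15 of 22 were positive with a median of 0.02. Of 14 tested p53 targets, the pathway best known for Cdkn1a, Ccng1 (-0.58 ± 0.13 SE, limma adjusted p = 0.00496) and Phlda3 (-0.22 ± 0.06, 0.0208) fell in naive mice over time, a share near the 12.7% of all genes that fell. Plk2, a kinase that p53 also induces, rose with Dbp within groups (slope 0.64 ± 0.10 SE, limma adjusted p = 0.00875), as 1 of the 14, beside 1.83% of all genes in either direction.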

How the data were processed

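The deposited values, 1 per probe set and array, were used as log2 intensities. The log2 scale was read from the values (2.23 to 19.70), and what the authors did to normalize and summarize the deposited values is not given in the sources used here. Biotin labelling followed the manufacturer's standard protocol, per the labels. Of 65956 transcript probe sets, 30604 carried 1 symbol in the platform annotation (827 symbols were updated by Entrez identifier), and 2146 with several were left out. For each of 30142 genes the probe set with the highest mean was taken, and the 20260 genes with a mean above the 40th percentile of probe sets were tested. That level was 4.52, below the array medians of the negative controls.

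All 25 arrays entered a limma fit (version 3.58.1, R 4.3.3) with a mean for each group, 16 residual and 3.28 prior degrees of freedom, two-sided, with Benjamini-Hochberg adjustment over all genes tested and a threshold of 0.05. The single 8 week sham array takes its spread from the rest. A second fit added the deviation of Dbp from its group mean as a slope (20259 genes). Correlations were computed with SciPy 1.17.1, for 45 relations of members to Dbp. The procedure was tested on simulated data. Precision is limited by how few arrays there are, with a median residual SD of 0.121.

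The members and the lists of related genes were chosen with earlier results of these data known. Named genes are the 9 members, Dbp, the 3 nearest genes of each member, and list genes past the threshold. Per1, the nerve injury list and Mt2 minus Mt1 were singled out after their values were seen. Alternatives were no filter, a stricter filter, quantile and cyclic loess normalization, a trended robust prior, array weights, the mean over probe sets, the replicate number as a block, only the arrays compared, each array left out in turn, and Per3 or Arntl in place of Dbp. Whether equal replicate numbers pair the arrays cannot be told: over 21 pairs the correlation of deviations ran from -0.359 to 0.318, with 8 over 0.1.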

Additional observations from a re-analysis of the deposited data

Results flagged for a closer look

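The sham minus naive difference of Mt1 was -0.21 at 4 weeks, where every sham array (14.13, 14.05 and 14.24) lay below every naive array (14.47, 14.27 and 14.32). At 16 weeks it was 0.23, where every sham array (14.41, 14.33 and 14.43) lay above every naive array (14.17, 14.25 and 14.07). It was marked because the arrays of the groups moved in opposite ways at the 2 times. The test of the change itself gave 0.44 ± 0.18 (SE, limma adjusted p = 0.176) and did not pass.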

How the results depend on the processing

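Of 2088 values of members recomputed under the alternatives, 2051 stayed on their side of the threshold, 32 lost a call, 5 gained 1 and 0 called values reversed. Of the values, 107 changed sign without a call, where at least 1 of the values compared was within its standard error. The members past the threshold in DMM minus naive averaged over times numbered 0 with the replicate block and 0 with only the arrays compared, and between 0 and 2 when each array was left out. The call of Fam107a was lost in 15 of 27 alternatives. Leaving out the second DMM array at 8 weeks gave 2, with Mt2 at -0.54. In naive mice between 4 and 16 weeks the count was 0 without a filter, with quantile normalization, with cyclic loess and with the replicate block, 2 with only the arrays compared (Mt2 at -0.42), and 0 with any array of the comparison left out. In sham mice between those times it was 0 without a filter, with the replicate block and with only the arrays compared, and from 0 to 1 with each array left out. It was 1 for DMM minus naive at 8 weeks without the second naive array (Fam107a at -0.73) and from 0 to 1 over all arrays left out. It was 1 in DMM mice between 4 and 16 weeks with array weights (Mt1 at -0.39, limma adjusted p = 0.0415), and from 0 to 1 for the change of the sham effect with each array left out. The replicate block, for numbers whose pairing is not known, gave limma adjusted p of 0.0711 for Fam107a, 0.0557 for Cdkn1a and 0.0556 for Sgk1. The cause of these changes was not tested. Genes called over all settings ranged from 2164 to 5301 in naive mice over time (3811 as reported), 0 to 916 in sham mice over time (357), 4 to 902 in DMM mice over time (582), 0 to 628 for sham against naive at 4 weeks (67), 122 to 1312 for the change of the sham effect (424) and 0 to 549 for the slope (371). They ranged from 0 to 20, 0 to 120 and 0 to 325 for DMM against naive at 4, 8 and 16 weeks (2, 10 and 3), 7 to 26 for their average (9), 0 to 7 and 0 to 11 for DMM against sham at 4 and 16 weeks (0 and 1), and 0 to 76 for sham against naive at 16 weeks (1).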

Other observations

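Mt2 minus Mt1, the log2 difference of both probe sets within an array, differed between groups although the genes correlated. It was 1.07, 1.06 and 0.79 in the naive arrays at 4 weeks, and 0.38, 0.45 and 0.40 in the DMM arrays at that time. It was 0.93, 0.72 and 1.02 in the sham arrays at 4 weeks. At 16 weeks it was 0.85, 0.65 and 0.75 in naive, 0.81, 0.50 and 0.75 in sham and 0.18, 0.41 and 0.54 in DMM arrays. The values at 8 weeks were 0.64, 0.73 and 0.60 in naive and 0.73, 0.95 and 0.72 in DMM arrays, and 0.28 in the lone sham array. The difference shows unequal change of the 2 probe sets and was singled out after its values were seen.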
